A study of Mus musculus with 1536 samples.

Results

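The transcription factors examined here are 9 genes that specify lymphatic endothelial cells (LECs) or build their valves: *Prox1*, *Sox18*, *Nr2f2*, *Tbx1*, *Hhex*, *Gata2*, *Nfatc1*, *Klf2* and *Klf4*. They were chosen by symbol, and all 9 are among the 23168 genes of the adult expression matrix. Each column of the matrix is 1 LEC, taken from adult C57BL/6 mice (aged 10–12 weeks). Nasopharyngeal mucosa from 30 mice of both sexes was combined before CD31+PDPN+ cells were sorted into 96-well plates and sequenced by Smart-seq3, which builds a full-length cDNA library from each cell. All cells were untreated, and neither a mouse nor a plate is named for any cell, so they form 1 sample. Values are therefore described over cells, with no test between groups of cells.

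PROX1 is a homeodomain protein that switches endothelial cells to the lymphatic fate and is needed to keep it. SOX18, of the SOXF group, and the nuclear receptor NR2F2 (COUP-TFII) act upstream of *Prox1* in embryonic veins, and NR2F2 also binds PROX1. TBX1, a T-box factor, and HHEX, a homeodomain factor, are needed for lymphatic vessels to form, in part through the receptor gene *Flt4*. GATA2 and NFATC1 act with PROX1 and FOXC2 in the cells that form lymphatic valves. KLF2 and KLF4 are zinc finger factors known for their response to shear stress in endothelium, including that of lymphatic vessels.

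On GRCm38 (GENCODE release M21) the 9 genes lie on different chromosomes and all are protein coding. Those specifying identity are *Prox1* (chr1:190118035-190170714, minus strand), *Sox18* (chr2:181669836-181671640, minus), *Nr2f2* (chr7:70351944-70366735, minus), *Tbx1* (chr16:18580979-18590671, minus) and *Hhex* (chr19:37434810-37440731, plus). The others are *Gata2* (chr6:88193891-88207032, plus), *Nfatc1* (chr18:80606205-80713071, minus), *Klf2* (chr8:72319033-72321656, plus) and *Klf4* (chr4:55527143-55532466, minus). Exons of *Prox1* overlap those of the antisense gene *Prox1os*, and exons of *Nr2f2* overlap those of *B130024G19Rik* on the other strand. Nothing states whether strand was used when reads were counted, so reads of these overlapping pairs cannot be told apart.

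Each deposited value is ln(1 + reads per 10000), with reads taken relative to the total of its cell. The cells held from 7433 to 3524360 reads (median 350746). *Mmrn1* was found in 100% of cells, *Flt4* in 99.8%, *Pecam1* in 99.6%, *Cdh5* in 99.2% and *Pdpn* in 95.2%; CD31, the product of *Pecam1*, and PDPN had been used in the sort. *Ptprc*, the defining gene of immune cells, had no read in any cell. Reads of at least 2 of 5 listed markers of immune cells, fibroblasts, epithelial, mural or Schwann cells were found in 19 cells. Only 2 of the epithelial and 3 of the Schwann markers were in the matrix, which limits the check for these cell types. Of 5 markers of blood endothelial cells, *Emcn* was read in 94.2% of cells, *Plvap* in 77.8%, *Cd34* in 28.9%, *Flt1* in 2.49% and *Nrp1* in 0.831%, and 79% of cells had reads of at least 2. A total of 52 cells (6.18%) had reads of both *Xist* and a Y chromosome gene, and no doublet caller was run.

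Of the 9 factors, *Klf4* and *Prox1* were found in almost all cells and *Tbx1* in the fewest. *Prox1* had a mean of 5.46 ± 4.50 reads per 10000 (SD over all cells) and a median of 4.42, and was found in 97.7% of cells (95% exact Clopper–Pearson interval 96.5–98.6%, which covers counting error only, as do all intervals here). The 90th percentile was 11.3, and the highest cell stood at 39.6. *Nr2f2* had a mean of 1.78 ± 2.11 and a median of 1.16 reads per 10000 and was found in 88.8% of cells (86.5–90.9%). *Sox18* had nearly the same mean, 1.75 ± 2.53, in fewer cells, 68.2% (64.9–71.3%), with a median of 0.714. *Sox18* was thus the less evenly spread of the pair, with a coefficient of variation of 1.45 against 1.19 for *Nr2f2* and 0.824 for *Prox1*.

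*Hhex* and *Tbx1* were read in fewer cells. *Hhex* had a mean of 0.818 ± 1.84 reads per 10000, was found in 50.5% of cells (47–53.9%) and reached 20.2 in the highest cell. *Tbx1* had a mean of 0.146 ± 0.461, was found in 29.5% of cells (26.4–32.7%) and stood above a deposited value of 1 in 1.43% of cells. The median of *Tbx1* was 0, and its mean rested on the upper cells, at a 90th percentile of 0.431 and up to 6.01.

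Of the factors of valve cells, *Nfatc1* was found in 84.3% of cells (81.7–86.7%) with a mean of 1.84 ± 2.43 and a median of 1.04 reads per 10000. *Gata2* was found in 41.8% (38.4–45.2%) with a mean of 0.525 ± 1.36 and a median of 0, reaching 23.1 in the highest cell. *Nfatc1* was the more widely read of the pair, with a value above 1 in 38.5% of cells against 9.98% for *Gata2*. *Klf4* had the highest mean of the 9 factors, 18.99 ± 18.7 reads per 10000, with a median of 13.5 and reads in 97.9% of cells (96.6–98.7%), and stood at rank 52 of all genes by its mean. *Klf2* had a mean of 4.37 ± 5.71, a median of 2.33 and reads in 87.5% of cells (85.1–89.7%). The plot of values in each cell shows the wide range of both KLF genes and the few high cells of *Tbx1*.

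**Figure D1:**
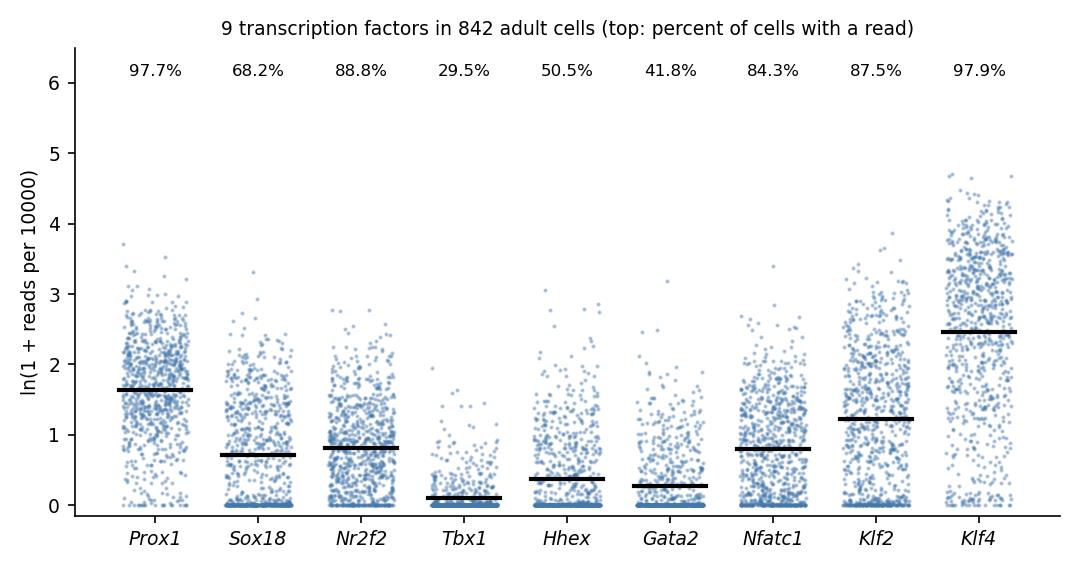
Deposited values, ln(1 + reads per 10000), of the 9 transcription factors (x axis) in each adult cell (points), with the mean as a black bar and the percent of cells with a read above each gene. *Klf4* and *Prox1* were found in 97.9% and 97.7% of cells, *Tbx1* in 29.5%.

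Shares of cells depend on depth, so the cells were also thinned to 100000 reads each, which left out the 26.8% that were shallower. At this depth *Prox1* was found in 98.7% of cells, *Klf4* in 96.1%, *Nr2f2* in 92.5%, *Nfatc1* in 83.6% and *Klf2* in 83%. *Sox18* was found in 62.8%, *Hhex* in 47.4%, *Gata2* in 40.4% and *Tbx1* in 25.2%. The order at equal depth differed from that over all reads only in that *Prox1* stood above *Klf4* and *Nfatc1* above *Klf2*. Levels between genes were compared as mean reads per 10000 per kilobase of exon. On this scale *Klf4* (6.23) was followed by *Klf2* (2.37), *Sox18* (1.08), *Prox1* (0.650), *Nfatc1* (0.247), *Nr2f2* (0.207), *Hhex* (0.162), *Gata2* (0.0972) and *Tbx1* (0.0414). None of these neighbours differed by more than the larger of their SDs over cells.

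Most of the factors led their own gene family on the scale per kilobase. *Prox1* stood at 0.650 against 0.00615 for *Prox2*, and *Sox18* at 1.08 against 0.367 for *Sox7* and 0.00659 for *Sox17*, the other SOXF genes. *Nr2f2* (0.207) stood above *Nr2f6* (0.0175) and *Nr2f1* (0.0117), and *Gata2* (0.0972) above *Gata6* (0.0219) and *Gata3* (0.00137). Among 5 T-box genes in the list, *Tbx1* (0.0414) was followed by *Tbx4* (0.00199). The exception was *Nfatc1* (0.247), which stood below *Nfat5* (0.329), an osmotic stress factor that lacks the calcineurin site of the other NFAT proteins. *Nfatc2* was at 0.0211 and *Nfatc3* at 0.0140, and *Nfatc4* had no read in any cell. *Klf4* and *Klf2* led 16 KLF genes, ahead of *Klf6* (0.897) and *Klf10* (0.489).

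Each cell held a median of 7 of the 9 factors (6 at 100000 reads), and 92.8% of cells held at least 5. *Prox1*, *Sox18* and *Nr2f2* were found together in 61% of cells (57.7–64.4%), and in 58.1% at 100000 reads. All 9 factors were found in 38 cells (4.51%), and in 2.60% at 100000 reads. *Klf2* and *Klf4* were found together in 86.2% of cells. *Klf4* without *Klf2* was read in 98 cells and *Klf2* without *Klf4* in 11. *Tbx1*, *Hhex* and *Gata2* were all missing in 22.8% of cells, and in 25.6% at 100000 reads.

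Reads of *Prox1* were missing in 19 cells (2.26%, 1.36–3.5%). These cells had a median of 21923 reads, against 381490 in the other cells, and 2327 against 4212 genes. All 19 had reads of *Pecam1*, *Cdh5*, *Flt4* and *Mmrn1*, while 17 had reads of *Reln*, 14 of *Pdpn*, 14 of *Lyve1* and 11 of *Ccl21a*. *Nr2f2* was read in 13 of them, *Sox18* in 9 and *Nfatc1* in 9. None had at least 2 markers of immune, fibroblast, epithelial, mural or Schwann cells, and 8 had at least 2 of the blood endothelial markers. Among the cells at 100000 reads, *Prox1* was missing in 8 (1.30%, 0.562–2.54%). Low depth and a lack of *Prox1* RNA cannot be told apart in the shallow cells.

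The factors were then compared by the status of 4 genes that mark LEC populations: *Stab2*, a hyaluronan scavenger receptor, *Fndc1*, a fibronectin type III domain protein, *Cldn11*, a tight junction claudin found in valve cells, and *Gja4*, the gap junction protein connexin 37 of valves. In the study's scheme *Stab2* and *Fndc1* mark populations of capillary LECs, and *Cldn11*+*Gja4*- and *Cldn11*+*Gja4*+ cells mark the upstream and downstream sides of valves. A cell was called positive where the deposited value of the gene was above 1. This held for 31.2% of cells with *Stab2*, 16.9% with *Fndc1*, 17.9% with *Cldn11* and 28.5% with *Gja4*, and a cell could be positive for several. A factor was counted as higher or lower where its mean reads per 10000 differed at least 1.5-fold, and the same count was made over the 9655 genes found in at least 10% of cells. *Prox1*, *Sox18*, *Nr2f2*, *Nfatc1*, *Klf2* and *Klf4* differed by less than 1.5-fold by each of the 4 genes. *Gata2* differed by all 4, *Tbx1* by 3 and *Hhex* by *Cldn11*. In each comparison the count of factors on either side lay within about 1 gene of the share of all genes, so the counts say nothing particular to the factors.

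By *Stab2* status, *Tbx1* was the only factor that was higher, against 10.6% of all genes higher, and *Gata2* the only factor that was lower, against 8.05% of all genes lower. A count of 1 in 9 lies near both background shares. *Tbx1* had a mean of 0.224 ± 0.655 reads per 10000 in *Stab2*-positive and 0.110 ± 0.332 in the other cells, a log2 ratio of 1.02. *Tbx1* was read in 35% of *Stab2*-positive cells against 26.9% of the others over all reads, and at 100000 reads in 27.3% (21–34.4%) against 24.2% (20.3–28.6%). A value above 1 was reached in 7 *Stab2*-positive cells (2.66%) and 5 others (0.864%). *Gata2* had a mean of 0.334 ± 0.827 against 0.612 ± 1.53, a log2 ratio of -0.87, and its share at 100000 reads was 30.6% (24–37.8%) against 44.6% (39.8–49.4%). *Gata2* therefore differed in the share of cells as well as in the mean. *Prox1* was at 5.58 ± 4.44 against 5.4 ± 4.52, and *Klf4* at 18.5 ± 19.5 against 19.2 ± 18.3. The central 90% of all genes lay between log2 ratios of -0.79 and 0.82.

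Listed genes of the same programmes were compared by *Stab2* status against the same shares of all genes, 10.6% higher and 8.05% lower, and those furthest past 1.5-fold in each list are named. Of 16 valve genes compared, 2 were higher and 4 lower, with a median log2 ratio of -0.012 against 0.048 over all genes. *Foxc2*, the forkhead factor of valve cells, was at 0.0827 against 0.238 reads per 10000 (log2 ratio -1.53), and *Gsn*, an actin-severing protein, at 0.536 against 2.25 (-2.07). *Efnb2*, the ephrin-B2 ligand gene, was at 0.890 against 1.89 (-1.08). Of 10 endothelial genes linked to shear stress or to the KLF factors, 1 was higher and 3 were lower. *Sema7a* was at 3.06 against 0.374 (3.03), and *Nos3*, encoding endothelial nitric oxide synthase, at 0.197 against 1.07 (-2.44). *Podxl* (-1.43) and *Cav1* (-1.33) were the other lower genes, while *Klf2* (-0.020) and *Klf4* (-0.060) were at almost the same level in both groups. Of 14 LEC identity genes, 3 were higher and 1 lower, led by *Angpt2*, an angiopoietin, at 13.4 against 4.66 (1.53). Among family members of the factors, *Nfatc2* was at -3.14, *Gata6* at -2.0 and *Klf3* at 0.63, and these were the only ones of 15 past 1.5-fold.

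By *Fndc1* status no factor was higher, against 7.07% of all genes, and 2 were lower, *Tbx1* and *Gata2*, against 11.1% of all genes. *Tbx1* had a mean of 0.0791 ± 0.256 reads per 10000 in the positive and 0.159 ± 0.491 in the other cells (log2 ratio -1.01), with 20.9% (13.9–29.4%) against 26.1% (22.4–30.2%) of cells at 100000 reads. *Gata2* was at 0.352 ± 0.740 against 0.560 ± 1.45 (-0.67), with 35.7% (26.9–45.1%) against 41.5% (37.2–46%) of cells. The intervals of both shares overlapped. *Sox18* was at 2.20 ± 2.78 against 1.66 ± 2.47 (0.41), and *Nr2f2* at 2.28 ± 2.31 against 1.68 ± 2.06 (0.44). In the 50 cells with an *Fndc1* value above 2, *Nr2f2* was at 2.82 ± 2.65 and *Sox18* at 2.83 ± 3.25. *Fndc1*-positive cells were deeper, with a median of 460124 against 335356 reads. Over cells thinned to 20000 reads, without 51 shallower cells, *Tbx1* was at -0.40 and *Gata2* at -0.47, both under 1.5-fold. There *Nr2f2* was at 0.40 and *Sox18* at 0.28. In cells with at least 100000 reads, *Tbx1* was at -0.73 and *Gata2* at -0.74, both past 1.5-fold. The same held with reads summed over cells, at -1.23 and -0.72. The part of depth in these ratios was not tested. *Sema7a* (-3.39), *Clu*, encoding the secreted chaperone clusterin (-1.84), and *Lyve1*, a hyaluronan receptor gene (1.26), were the listed genes furthest from 0 among flow, valve and identity genes. Of 16 valve genes, 1 was higher and 3 were lower.

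By *Cldn11* status, *Gata2* was higher, against 4.62% of all genes, and *Tbx1* and *Hhex* were lower, against 10.1% of all genes. *Gata2* had a mean of 0.778 ± 1.21 in the positive and 0.470 ± 1.38 reads per 10000 in the other cells (log2 ratio 0.73). *Gata2* was read in 50.5% (40.7–60.2%) against 38.3% (34–42.7%) of cells at 100000 reads. A value above 1 was reached in 26 cells (17.2%) against 58 (8.39%). *Tbx1* was at 0.0940 ± 0.335 against 0.157 ± 0.483 (-0.74) and *Hhex* at 0.578 ± 1.03 against 0.871 ± 1.97 (-0.59). With reads summed over cells *Tbx1* was at 0.082, the opposite direction. *Hhex* lay from -0.51 to -0.40, under 1.5-fold, with any read or a value above 2 of *Cldn11*, at 20000 reads, in cells with at least 100000 reads and with summed reads. The share with a *Hhex* read did not follow its mean, with 50.5% against 46.7% of cells at 100000 reads. *Nfatc1* was at 1.98 ± 2.34 against 1.81 ± 2.45 (0.12) and *Prox1* at 5.91 ± 4.69 against 5.36 ± 4.45 (0.14).

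Of 16 valve genes, 5 were higher and 1 lower by *Cldn11* status, against 4.62% and 10.1% of all genes, with a median log2 ratio of 0.23 against -0.051 over all genes. *Gsn* was at 3.97 against 1.22 (1.70), *Clu* at 4.67 against 2.66 (0.81) and *Lama5*, a laminin chain gene, at 0.309 against 0.183 (0.76). *Foxc2* was at 0.168 against 0.194 (-0.21). Of the factors' relatives, *Gata6* (1.0) and *Nfatc2* (0.82) were higher and *Klf12* (-2.17) was lower. The summed level of 5 fibroblast markers was 1.21 against 0.224 reads per 10000. Of these markers, 4 were read in some *Cldn11*-positive cell and all 5 in some other cell. The highest *Cldn11*-positive cell was at 134.6 and the highest of the others at 6.18. The log2 ratio of *Gata2* was 0.71 without the 19 cells that had 2 or more immune, fibroblast, epithelial, mural or Schwann markers.

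By *Gja4* status *Gata2* was higher, against 5.02% of all genes, and no factor was lower, against 6.73% of all genes. *Gata2* was at 0.702 ± 1.94 against 0.454 ± 1.03 reads per 10000 (log2 ratio 0.63), and its share of cells at 100000 reads was 48.4% (41–55.8%) against 37% (32.4–41.7%). Without the highest *Gata2* cell, at 23.1, the ratio was 0.42, under 1.5-fold. *Sox18* was at 2.09 ± 2.92 against 1.61 ± 2.34 (0.38), with 69.4% (62.2–75.9%) against 60% (55.2–64.7%) of cells. *Klf4* was at 15.5 ± 15.2 against 20.4 ± 19.8 (-0.40). These differences were smaller than the SD over cells in either group. *Foxc2* was at 0.304 against 0.144 (1.08), and of 16 valve genes 3 were higher and 1 was lower. The summed level of 5 immune markers was 1.43 against 0.141, with a highest cell of 269.2 against 15.1. The 2 groups each held 2 cells with at least 2 immune markers, and the log2 ratio of *Gata2* without the same 19 cells was 0.63. The plot of log2 ratios by status shows 6 factors inside 1.5-fold in all 4 comparisons, *Gata2* outside the central 90% of genes in 3 and *Tbx1* in 2.

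**Figure D2:**
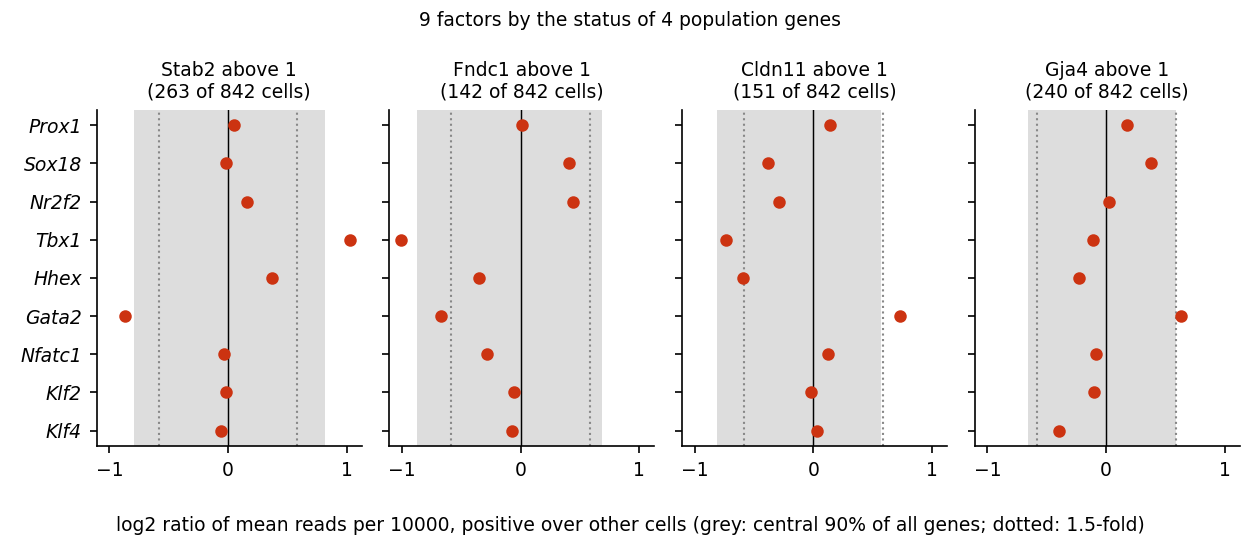
Log2 ratio of mean reads per 10000 in positive over other cells (x axis) for the 9 factors (points), by the status of *Stab2*, *Fndc1*, *Cldn11* and *Gja4*. Grey bands hold the central 90% of 9655 genes and dotted lines mark 1.5-fold; *Gata2* lies at -0.87, -0.67, 0.73 and 0.63 and *Tbx1* at 1.02, -1.01, -0.74 and -0.11.

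Within the *Cldn11*-positive cells, 52 were *Gja4*-positive and 99 were not. *Tbx1* was higher in the *Gja4*-positive cells, against 16.2% of all genes, and *Klf4* was lower, against 17.8% of all genes. A count of 1 in 9 lies below both background shares. *Klf4* was at 14.2 ± 12.8 against 22 ± 18.3 reads per 10000 (log2 ratio -0.63), with medians of 9.33 and 18.1. *Tbx1* was at 0.134 ± 0.304 against 0.0728 ± 0.35 (0.88). The share of cells with *Tbx1* at 100000 reads was 29.7% (15.9–47%) against 18.1% (9.98–28.9%), with overlapping intervals. *Gata2* was at 0.833 ± 1.06 against 0.749 ± 1.29 (0.15) and *Nfatc1* at 1.66 ± 2.41 against 2.14 ± 2.30 (-0.36). *Prox1* was at 6.69 ± 6.01 against 5.51 ± 3.79 (0.28).

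Since statuses overlap, cells were also placed in exclusive groups, of which 22.3% were positive for *Stab2* only, 9.38% for *Fndc1* only, 12.9% for *Gja4* only, 8.31% for *Cldn11* only, 4.63% for *Cldn11* and *Gja4*, and 27.3% for none of the 4. The remaining 15.1% had other combinations. At 100000 reads, *Gata2* was found in 31.5% (23.4–40.4%) of *Stab2*-only, 34.4% (22.9–47.3%) of *Fndc1*-only and 39% (31.5–46.9%) of cells positive for none. The share was 53.5% (42.4–64.3%) in *Gja4*-only, 50% (35.5–64.5%) in *Cldn11*-only and 65.5% (45.7–82.1%) in *Cldn11*+*Gja4*+ cells. The intervals of *Stab2*-only cells did not overlap those of *Gja4*-only or *Cldn11*+*Gja4*+ cells, while those of neighbours in this order overlapped. These intervals cover counting error over cells of a pooled sample and are no test between groups. The share of all genes with intervals apart between these groups is not given, so nothing particular to *Gata2* follows. The groups also use the same status genes as the comparisons above, so they are not separate support. *Hhex* was found in 39.5% (30.9–48.7%) of *Stab2*-only and 62.1% (42.3–79.3%) of *Cldn11*+*Gja4*+ cells. *Tbx1* was found in 29% (21.2–37.9%) of *Stab2*-only cells, 28% (21.3–35.6%) of cells positive for none, 18.8% (10.1–30.5%) of *Fndc1*-only and 14% (5.82–26.7%) of *Cldn11*-only cells. These shares of *Hhex* and *Tbx1* had overlapping intervals. *Prox1* was found in at least 96.6% of each group.

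**Figure D3:**
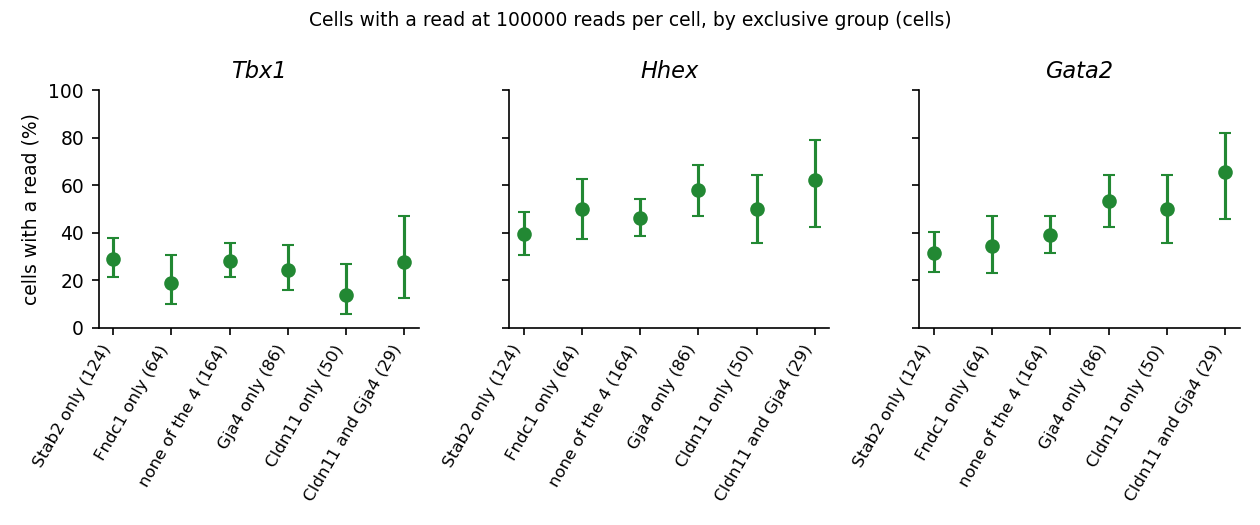
Percent of cells with a read (y axis) of *Tbx1*, *Hhex* and *Gata2* at 100000 reads per cell in 6 exclusive groups of cells (x axis, number of cells in brackets), with exact 95% intervals as bars. For *Gata2* the share was 31.5% in *Stab2*-only and 65.5% in *Cldn11*+*Gja4*+ cells.

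*Gata2* also differed along the level of the status genes. By *Cldn11*, its mean was 0.423 ± 1.42 reads per 10000 in the 62.7% of cells with no read, 0.621 ± 1.22 in those with a value up to 1 (19.4%), 0.639 ± 1.06 in those up to 2 (13.7%) and 1.22 ± 1.54 in 36 cells above 2. By *Stab2*, it was 0.618 ± 1.74, 0.602 ± 1.13, 0.343 ± 0.812 and 0.327 ± 0.842 in the same 4 bins, which held 42.2%, 26.6%, 13.9% and 17.3% of cells. The order of the means was thus opposite for the 2 genes, while each step was smaller than the SD over cells. *Tbx1* was at 0.0844, 0.150, 0.223 and 0.224 along the bins of *Stab2*, and at 0.00945 ± 0.0418 in the 36 cells with *Cldn11* above 2, where 8.33% of cells had a read. *Hhex* was at 0.814, 0.648, 0.482 and 1.36 along *Stab2*, with no single direction. Depth differed along these bins, with medians of 278595, 494208, 483087 and 262904 reads for *Stab2*, and its part in the means was not tested.

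Across all cells, *Klf2* and *Klf4* had a Spearman's rho of 0.53, the only one of 36 pairs of factors at 0.2 or above. It was 0.52 both over cells thinned to 20000 reads and over those thinned to 100000. The cells come from 1 pooled sample and differ in depth, so rho is given as a description. The next pairs were *Prox1* with *Nfatc1* (0.18) and *Sox18* with *Nr2f2* (0.15), and the lowest was *Sox18* with *Klf4* (-0.22). *Prox1* had a rho of -0.013 with *Sox18* and 0.043 with *Nr2f2*, and of 0.019 to 0.073 with the 4 status genes. *Gata2* had a rho of 0.18 with *Cldn11*, 0.14 with *Gja4* and -0.13 with *Stab2*. Apart from *Klf2* with *Klf4*, the factors therefore showed little common order over cells.

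**Figure D4:**
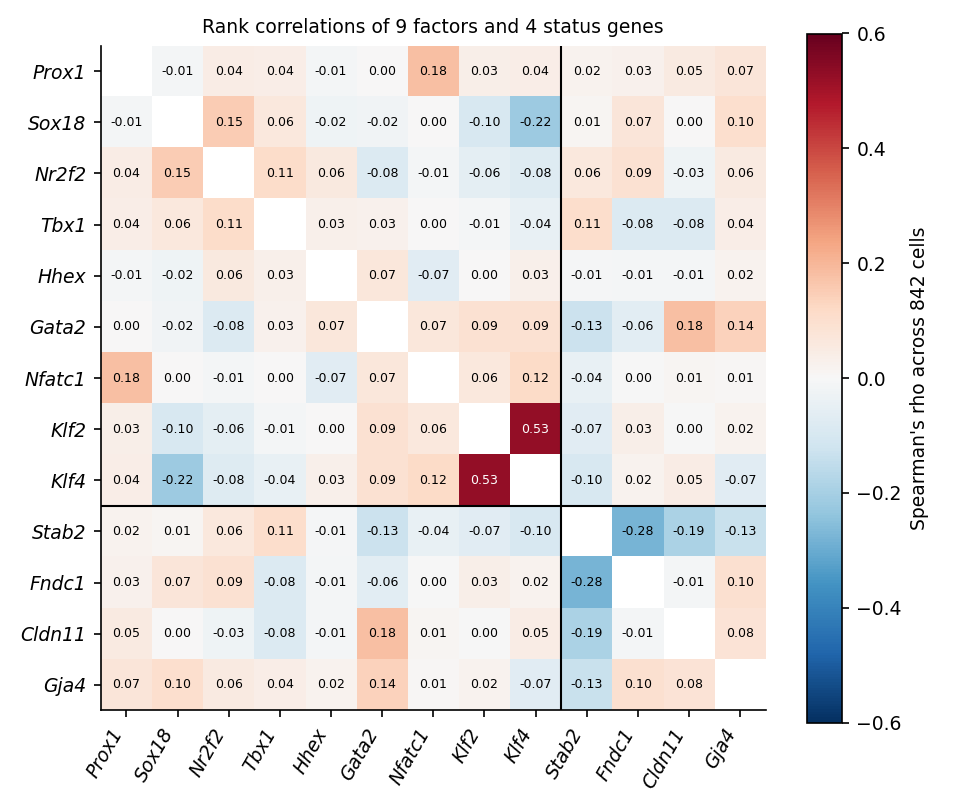
Spearman's rho across all adult cells for each pair of the 9 factors and 4 status genes (both axes), in colour and in print, with black lines parting factors from status genes. *Klf2* with *Klf4* is the highest at 0.53 and *Stab2* with *Fndc1* the lowest at -0.28.

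Immediate early genes, which cells transcribe within minutes of a stimulus or of tissue dissociation, were highly read in these cells, with *Fos* at a mean of 88.3 and *Atf3* at 20.2 reads per 10000. The list of 20 genes used for these also held the heat shock genes *Hspa1a* and *Hspa1b* and the stress gene *Ppp1r15a*. The mean deposited value of the 20 had a rho of 0.68 with *Klf4* and 0.56 with *Klf2*. It was -0.27 with *Sox18*, 0.18 with *Gata2*, -0.15 with *Nr2f2* and 0.045 with *Prox1*. In the tertile of cells with the lowest mean of these genes, *Klf4* was at 5.38 ± 7.08 reads per 10000 and *Klf2* at 1.55 ± 3.63. In the middle tertile they were at 21.9 ± 17 and 4.42 ± 4.999, and in the highest at 29.7 ± 20.01 and 7.15 ± 6.65. Within these 3 groups the rho of *Klf2* with *Klf4* was 0.15, 0.36 and 0.34. *Sox18* took the opposite order, at 2.79 ± 3.26, 1.34 ± 1.98 and 1.12 ± 1.73, while *Prox1* was at 5.17 ± 4.67, 5.59 ± 4.31 and 5.61 ± 4.5. The part of dissociation in the levels of *Klf2*, *Klf4* and *Sox18* was not tested.

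**Figure D5:**
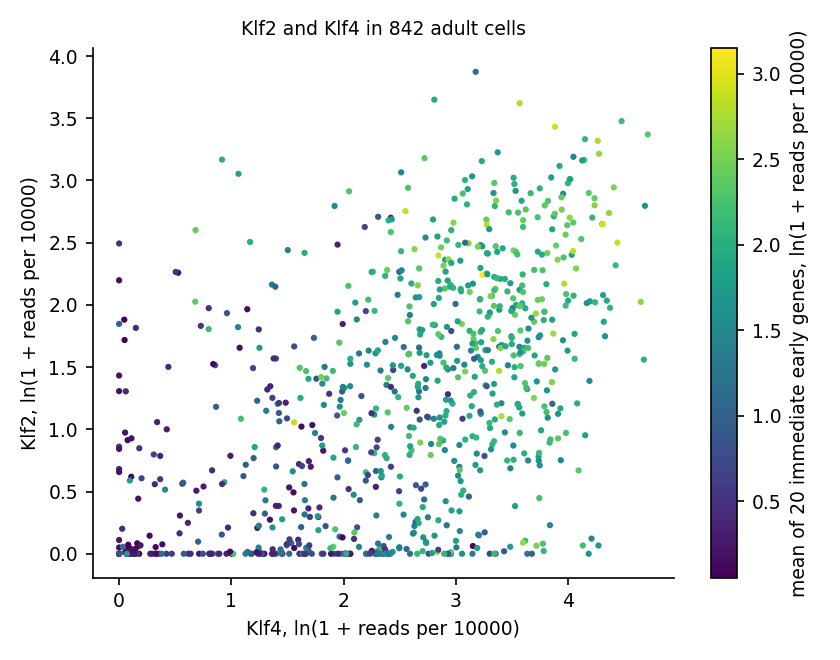
*Klf4* (x axis) and *Klf2* (y axis) in each adult cell (points), both as ln(1 + reads per 10000), coloured by the mean of 20 immediate early genes on the same scale. The pair had a Spearman's rho of 0.53 over all cells and 0.15 in the tertile with the lowest mean of these genes.

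The mean of the 20 immediate early genes differed little by population. It was 1.43 in *Stab2*-positive and 1.54 in the other cells, 1.38 and 1.53 by *Fndc1*, 1.53 and 1.497 by *Cldn11*, and 1.45 and 1.52 by *Gja4*. Of the single genes, 2 each were at least 1.5-fold lower by *Stab2*, *Fndc1* and *Gja4*, against 8.05%, 11.1% and 6.73% of all genes. By *Cldn11* 0 were lower, against 10.1% of all genes. By each of the 4 status genes 0 were higher, against 10.6%, 7.07%, 4.62% and 5.02% of all genes. The comparisons by status were also made in the lowest tertile and in all other cells together. In the lowest tertile the log2 ratio of *Gata2* was -0.43 by *Stab2*, -0.74 by *Fndc1*, 1.43 by *Cldn11* and 0.57 by *Gja4*. In the other cells it was -0.99, -0.52, 0.50 and 0.68. *Tbx1* was at 1.35 in the lowest tertile and 0.52 in the other cells by *Stab2*, -1.59 and -0.60 by *Fndc1*, and -0.32 and -1.41 by *Cldn11*. *Hhex* by *Cldn11* was at -0.16 and -0.78. The direction was the same in both sets of cells for these 8 comparisons, while 7 of the 16 values lay under 1.5-fold.

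Promoters of *Klf2* and *Klf4* are shown because this was the pair that varied together. RefSeq (GRCm38.p6) promoters were available for 7 of the 9 factors, not for *Sox18* and *Nfatc1*. The 250 bases before the RefSeq start of each gene, which differs from the GENCODE start given above, lie at chr8:72318812-72319061 (*Klf2*, plus strand) and chr4:55532476-55532725 (*Klf4*, minus strand) and are written 5′ to 3′ on the strand of the gene. Capitals mark a MEF2 box, which MEF2 factors bind, and GGGCGG on either strand, the GC box that SP and KLF proteins can bind.
Klf2: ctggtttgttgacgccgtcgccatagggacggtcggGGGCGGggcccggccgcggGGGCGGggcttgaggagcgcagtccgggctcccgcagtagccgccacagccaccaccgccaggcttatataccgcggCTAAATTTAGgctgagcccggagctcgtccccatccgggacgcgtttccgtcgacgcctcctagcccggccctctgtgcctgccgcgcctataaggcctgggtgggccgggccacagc
Klf4: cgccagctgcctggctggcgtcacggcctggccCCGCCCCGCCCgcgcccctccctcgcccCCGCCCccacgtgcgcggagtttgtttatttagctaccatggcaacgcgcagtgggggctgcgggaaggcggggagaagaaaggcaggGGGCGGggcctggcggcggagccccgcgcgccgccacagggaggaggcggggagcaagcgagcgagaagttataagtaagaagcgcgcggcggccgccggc
A MEF2 box was present once in *Klf2*, downstream of both GGGCGG matches, and absent from *Klf4*; 2.92% of 32851 promoters of this length held it on either strand. GGGCGG had 2 matches in *Klf2* and 4 in *Klf4*, of which a pair overlap and are printed as 1 run, and 32.7% of promoters held it. CACCC, the core that KLF proteins bind, had 1 match in *Klf2* and 0 in *Klf4* (52% of promoters), and the CArG box of serum response factor had none in either (1.47%). A match describes the letters in this window and not the binding of a factor.

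For each factor the genes with the highest rho over the cells thinned to 100000 reads were taken from 9106 genes. For *Klf4* these were *Fos* (0.61), *Atf3* (0.61) and *Junb* (0.60), and for *Klf2* *Jun* (0.53), *Klf4* (0.52) and *Fos* (0.51); all but *Klf4* are immediate early genes. *Gata2* was followed by *Parm1* (0.25), *Lypd6* (0.23) and *Slc41a1* (0.23), and *Nr2f2* by *Igfbp4* (0.24), *Maf* (0.24) and *Flt4* (0.23), the receptor gene of VEGF-C. *Sox18* was followed by *Txnip* (0.23), *Lyl1* (0.23) and *mt-Nd3* (0.23), and *Prox1* by *Slc41a1* (0.19), *Marcksl1* (0.18) and *Malat1* (0.18). The highest values were 0.17 for *Tbx1* (*Malat1*) and 0.17 for *Hhex* (*Kazald1*). All these values are the upper end of 9106 genes. Of those genes, 95% lay below 0.13 for *Klf4*, 0.11 for *Klf2* and 0.10 or less for each other factor. For the factors other than *Klf2* and *Klf4* the highest values were weak, and in sparse counts such a rho is no finding.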

How the data were processed

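Reads were aligned by the authors with STAR to mm10 and counted per gene with featureCounts (Subread), and the submitters' processing notes name Seurat 4.1.0. The authors removed cells of low quality and deposited 1 matrix on a natural log scale, ln(1 + reads per 10000), which was checked by sums of 10000 in every cell; the methods name a log2 step, and log2 did not give these sums. Whole reads were recovered from 100% of values above 0 (within 0.01 reads). Counting settings for strand are not given in the sources used here. Aged cells were not analysed here.

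The 9 factors and all gene lists were chosen with earlier results of these data known. All 842 cells are 1 sample, so levels are means ± SD over cells, no p-value is given and shares have exact Clopper–Pearson 95% intervals. Comparisons used mean reads per 10000 in cells with a status gene above 1 against all others (263 and 579 cells for *Stab2*, 142 and 700 for *Fndc1*, 151 and 691 for *Cldn11*, 240 and 602 for *Gja4*), a 1.5-fold threshold and genes found in at least 10% of cells. Thinned cells were drawn without replacement, and 51 and 226 cells were left out at 20000 and 100000 reads. Named genes were the factors, the status genes, up to 4 listed genes furthest past 1.5-fold per list and comparison, the leading family members and the 3 genes most alike to each factor; *Foxc2* by *Cldn11* and the single immediate early genes were named after their values were seen, and a few genes that the rule names are not reported here. Lists held 15 LEC identity, 18 valve, 12 flow, 36 family and 20 immediate early genes and 5 markers each of Schwann, mural, epithelial, fibroblast, blood endothelial and immune cells. In simulated data for the *Stab2* comparison, 99% of doubled and 100% of halved genes were called, and 0.254% of unchanged genes. The simulation drew the added spread between cells from a fixed distribution for all genes, which was not fitted to these data. Its rates therefore do not carry over to *Tbx1*, *Gata2* and *Hhex*, which had coefficients of variation of 3.17, 2.58 and 2.25. Computation used SciPy 1.17.1, pandas 2.3.3 and NumPy 2.4.6 under Python 3.11.15. Alternatives changed the status threshold, depth, cell filter, weight of cells, measure, pseudocount and fold.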

Additional observations from a re-analysis of the deposited data

How the results depend on the processing

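The comparisons by status depended on the scale. With differences of mean natural log values, and with 1 read per 10000 added to both means, the count of factors past 1.5-fold was 0 in both directions by all 4 status genes. At 2-fold it was 1 higher (*Tbx1*) and 0 lower by *Stab2*, and 0 higher and 1 lower (*Tbx1*) by *Fndc1*. By *Cldn11* and *Gja4* it was 0 in both directions. For the alternatives that follow, counts not named were unchanged. With any read of the status gene, 0 were lower by *Stab2*, 1 by *Fndc1* and 1 by *Cldn11* (*Tbx1* in both). With a status value above 2, 2 were higher by *Stab2* (*Tbx1*, *Hhex*), 2 higher (*Sox18*, *Nr2f2*) and 1 lower (*Gata2*) by *Fndc1*, and 1 lower by *Cldn11* (*Tbx1*). At 20000 reads, 0 were lower by *Fndc1* and 1 by *Cldn11* (*Tbx1*), and 1 was lower by *Cldn11* among cells with at least 100000 reads (*Tbx1*). With reads summed over cells, 0 were lower by *Cldn11*, and the log2 ratio of *Tbx1* was 0.082, the only ratio past 1.5-fold that turned its direction. The causes of these differences were not tested. Alternatives chosen after seeing the data were the groups by immediate early genes, leaving out the 19 cells with immune, fibroblast, epithelial, mural or Schwann markers, and leaving out the highest cell of a factor. Of all log2 ratios of factors under alternatives, 1 past 1.5-fold turned its direction, 41 lay more than 0.3 from the reported value and all others lay within it; ratios under 1.5-fold, such as *Klf2* by *Gja4* (-0.11, and 0.19 with a status value above 2), also changed sign. All 180 recomputed pair correlations stayed within 0.1. *Hhex* by *Cldn11*, at -0.59, was at -0.56 without the 19 cells and -0.54 without its highest cell, both under 1.5-fold. Leaving out wells with *Xist* and a Y chromosome gene left every log2 ratio within 0.3. No replicate could be left out, since the cells are 1 sample. Depth limits shares of cells, which at 20000 reads were lower for all 9 factors (*Nfatc1* 64.7%, *Gata2* 29.1%, *Tbx1* 13.3%), and reads counted without molecular identifiers are not independent molecules.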
